A study of Rattus norvegicus with 5 samples.

Results

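Chromosome 14 carried the fewest peaks per Mb of the 20 autosomes in each of 3 deposited rat peak lists, made with an antibody against N6-methyladenine (6mA). Its members are all peaks placed on chromosome 14 in the lists of immunoprecipitated DNA against input: 2909 of 116091 peaks in Astrocytes, 3525 of 137579 in Neurons and 3161 of 121816 in NSCs. That makes 9595 of 375486 peaks (2.56%). The chromosome was chosen for its low density, so the density values below are a description and carry no test. The peaks were numbered without a gap along the chromosome in each list.

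The series, whose title is about hippocampal neurogenesis and the genes N6amt1 and Txnrd3, mapped 6mA in rat genomic DNA by immunoprecipitation and sequencing. It holds 1 immunoprecipitated library each of Astrocytes, Neurons and NSCs, with inputs for Neurons and NSCs. The NSCs are the SCR022 line, a commercial line of adult rat hippocampal neural stem cells. For the other 2 cell types the labels give the cell type alone, with no strain, age, origin or differentiation protocol, and no library carries a treatment. Uniquely mapped reads numbered 13866225 in the immunoprecipitated Astrocyte library, 13930646 in that of Neurons and 13785430 in that of NSCs. With 1 library per cell type, no difference could be set against a spread between replicates, and no p was computed. The files hold DNA peaks and no expression values, so the cell type labels were not checked against marker genes. The astrocyte list was deposited as made against an input of its own, which is not among the samples used here. Positions are those of the files, whose genome build the sources used here do not give.

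6mA is adenine with a methyl group on the nitrogen at position N6. The mark is common in bacteria, where it takes part in restriction and repair, and its amount and origin in mammalian DNA are debated. Immunoprecipitation enriches fragments that the antibody binds, so a peak marks a region where the antibody pulled down more DNA than the input holds. It gives no single adenine and no share of methylated molecules. Peak calls can also follow repeats, sequence composition and the antibody's other targets, whose part was not tested here.

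Promoters with a peak in all 3 lists are shown to give the reference sequence before the genes concerned. Of 43 such symbols, 13 had a gene name, and 10 of these had an entry in the RefSeq promoter table of the GRCr8 assembly. The 5 with the highest enrichment in their weakest list are printed as the 250 bases before the annotated start, in the gene's direction; Sdad1, which ranked among them, had no entry. Capitals mark matches on either strand to the sequence CAGGC, to its form CAGGT and to the forms with a leading G, spelt GAGGC and then GAGGT, a short motif family reported around 6mA in human DNA. The printed windows are those of the GRCr8 reference and need not coincide with the peaks, which lie on the files' own coordinates.
Lrrc8b (chr14:4721077-4721326, minus strand): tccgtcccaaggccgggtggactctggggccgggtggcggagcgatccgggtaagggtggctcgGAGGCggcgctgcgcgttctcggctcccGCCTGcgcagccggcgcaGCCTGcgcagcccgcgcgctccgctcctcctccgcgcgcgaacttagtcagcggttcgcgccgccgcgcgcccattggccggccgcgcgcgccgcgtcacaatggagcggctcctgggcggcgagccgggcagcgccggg
Paqr3 (chr14:12766355-12766604, plus strand): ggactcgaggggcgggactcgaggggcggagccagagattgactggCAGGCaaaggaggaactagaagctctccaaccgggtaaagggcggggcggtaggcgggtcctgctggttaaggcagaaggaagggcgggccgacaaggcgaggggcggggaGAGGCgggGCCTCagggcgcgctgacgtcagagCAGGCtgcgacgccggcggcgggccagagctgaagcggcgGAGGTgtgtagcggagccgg
Hsd17b13 (chr14:6056539-6056788, plus strand): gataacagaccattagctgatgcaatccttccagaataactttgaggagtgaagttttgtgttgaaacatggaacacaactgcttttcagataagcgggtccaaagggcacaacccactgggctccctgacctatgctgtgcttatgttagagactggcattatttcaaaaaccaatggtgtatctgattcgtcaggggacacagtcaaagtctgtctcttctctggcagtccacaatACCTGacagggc
Adamts3 (chr14:18514999-18515248, plus strand): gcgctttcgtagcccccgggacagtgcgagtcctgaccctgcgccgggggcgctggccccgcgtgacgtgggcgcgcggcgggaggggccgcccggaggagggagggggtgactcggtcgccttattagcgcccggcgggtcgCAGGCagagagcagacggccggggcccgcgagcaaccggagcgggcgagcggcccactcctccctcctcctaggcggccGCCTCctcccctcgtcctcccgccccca
Alb (chr14:17906980-17907229, minus strand): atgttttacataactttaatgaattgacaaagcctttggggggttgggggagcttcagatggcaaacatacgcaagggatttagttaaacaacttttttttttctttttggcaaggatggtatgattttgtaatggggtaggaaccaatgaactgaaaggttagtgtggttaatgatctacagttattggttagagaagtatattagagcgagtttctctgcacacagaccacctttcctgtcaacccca

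The windows differ widely in composition. Lrrc8b, a subunit of volume-regulated anion channels, and Adamts3, a procollagen-processing protease, had 78.4% and 77.6% G and C in this window, and Paqr3, a Golgi protein, had 70.4%. Hsd17b13, a lipid droplet enzyme of liver, had 45.6% and Alb, serum albumin, 38.8%, where the median over 27457 promoters was 52.0%. The motif family occurred 5 times before Paqr3, 3 times before Lrrc8b, 2 times before Adamts3, 1 time before Hsd17b13 and 0 times before Alb. At least 1 match was found in 90.8% of all promoters of the same length and in 89.3% of the 936 on chromosome 14, with a median of 3 matches, so its presence does not single these windows out.

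The peaks at these promoters were many times enriched in each cell type. Fold here is the authors' enrichment over input. Their score is 10 times the −log10 p of their peak caller. Both are the authors' own values. Each list was made against an input of its own, so values of different lists stand side by side as a description only. The Paqr3 promoter had a fold of 108 in Astrocytes (14106751 to 14107070), 47.2 in Neurons (14106721 to 14107110) and 34.6 in NSCs (14106726 to 14107293). The Lrrc8b promoter had 43.3, 39.8 and 46.4 in Astrocytes, Neurons and NSCs, and the Hsd17b13 promoter 50.9, 29.3 and 62.7. The Sdad1 promoter had 28.0, 44.7 and 41.0, and that of Adamts3 38.2, 43.5 and 20.1. The Alb promoter, which drives transcription in liver, had 33.1 in Astrocytes (19193750 to 19194118), 51.9 in Neurons (19193527 to 19194133) and 18.3 in NSCs (19193717 to 19194022). The other named promoters with a peak in every list were those of Shroom3, Ociad2, Arhgap24, Fam114a1, Ywhah, Naa11 and Cxcl3, with folds of 10.2 to 21.6 in Astrocytes, 7.24 to 17.5 in Neurons and 11.3 to 20.8 in NSCs. These promoters were chosen for having a peak in each list, and the order of the cell types by fold differed from gene to gene.

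Chromosome 14 held 25.2 peaks per Mb in Astrocytes, 30.5 in Neurons and 27.4 in NSCs, where the median autosome held 44.3, 52.5 and 46.5. The ratio to the median autosome was 0.569, 0.581 and 0.588 in Astrocytes, Neurons and NSCs. Chromosome 5, the next sparsest autosome in each list, held 36.5, 43.8 and 38.5 peaks per Mb. The X chromosome held 28.3, 34.6 and 31.6. Peaks covered 1.20%, 1.46% and 1.35% of chromosome 14 in Astrocytes, Neurons and NSCs, where the median autosome was covered to 2.23%, 2.71% and 2.46%. Among autosomes, peaks on chromosome 14 were also the narrowest by their median, at 412, 422 and 435 bp, where the medians of the other autosomes spanned 418 to 568, 425 to 580 and 438 to 582.5 bp.

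**Figure D1:**
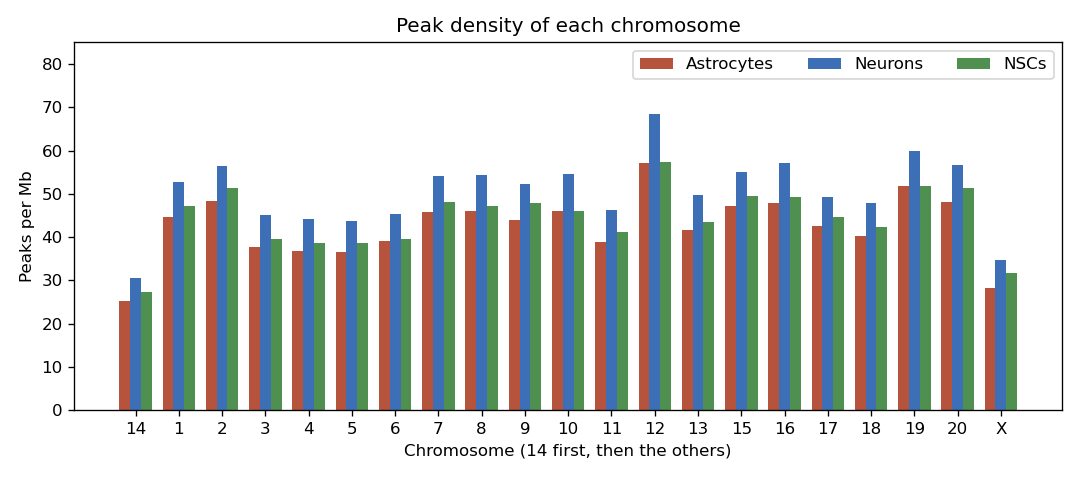
Peaks per Mb (vertical axis) of each chromosome (horizontal axis), with chromosome 14 first and then chromosomes 1 to 20 and X, and 1 bar each for Astrocytes, Neurons and NSCs. Chromosome 14 stands at 25.2, 30.5 and 27.4 peaks per Mb, below every other autosome.

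In proportion, the shortfall was greatest among weakly enriched peaks. Peaks with a fold under 10 were present at 0.386, 0.458 and 0.388 times the density of the median autosome in Astrocytes, Neurons and NSCs. Between a fold of 10 and 20 the ratio was 0.619, 0.627 and 0.663, and between 20 and 50 it was 0.767, 0.723 and 0.734. From 50 to 100 it was 0.649, 0.682 and 0.760. Above a fold of 100, chromosome 14 held 22 peaks in Astrocytes, 19 in Neurons and 8 in NSCs, at 0.860, 0.803 and 0.796 times the median density, and was no longer the sparsest autosome. By score no such gradient was found. The ratio stayed between 0.538 and 0.709 in every score band and list. Peaks under a fold of 10 accordingly made up 17.9%, 22.2% and 18.3% of the chromosome 14 peaks in Astrocytes, Neurons and NSCs, and 28.0%, 29.2% and 27.8% of all others.

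**Figure D2:**
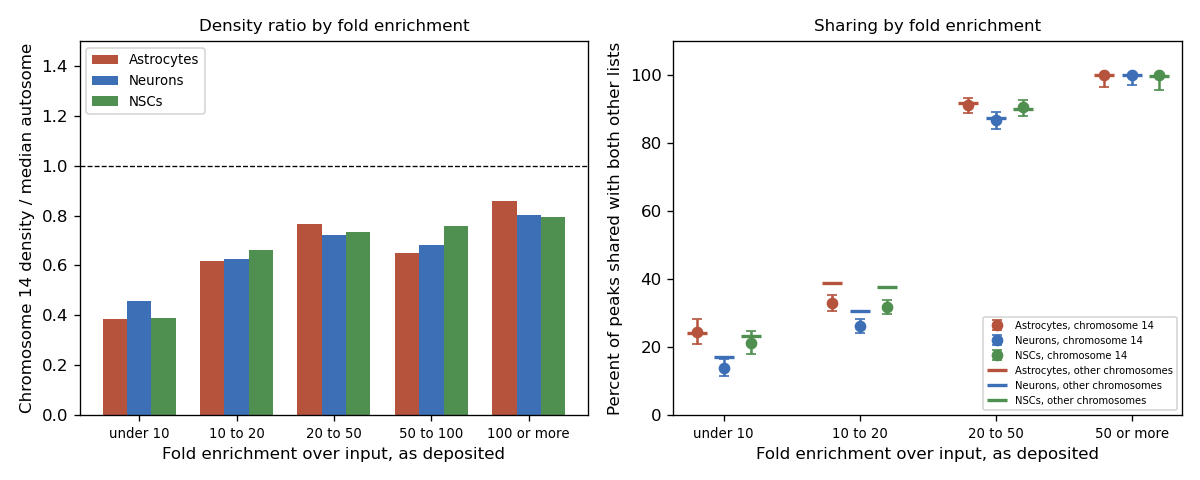
Left, density of chromosome 14 peaks divided by that of the median autosome (vertical axis) for peaks grouped by the deposited fold (horizontal axis). Right, percent of peaks that overlap a peak of both other lists, with points and exact 95% intervals for chromosome 14 and dashes for all other chromosomes; the chromosome 14 points lie below the dashes at a fold of 10 to 20 in Astrocytes, Neurons and NSCs.

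The low density was not confined to a gap. Of 115 full windows of 1 Mb, 111 in Astrocytes, 112 in Neurons and 111 in NSCs held fewer peaks than the median autosome per Mb. Their count ranged from 8 to 50 in Astrocytes (median 25), from 9 to 58 in Neurons (median 30) and from 7 to 55 in NSCs (median 26). The windows with fewer than 10 peaks numbered 2 in Astrocytes, 1 in Neurons and 2 in NSCs, against 4, 1 and 5 of 2494 windows on the other autosomes. With windows shifted by 0.5 Mb they numbered 2, 0 and 0. Windows with 40 peaks or more made up 6.96%, 20.9% and 9.57% of chromosome 14, against 59.8%, 80.1% and 66.2% of the other autosomes. No other autosome had so low a median window, since theirs spanned 36 to 57, 44 to 69 and 38 to 54. The coefficient of variation between windows was 0.372, 0.332 and 0.342, above the 0.212 to 0.364, 0.198 to 0.321 and 0.211 to 0.318 of the other autosomes. Lower counts raise this coefficient by counting error alone.

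**Figure D3:**
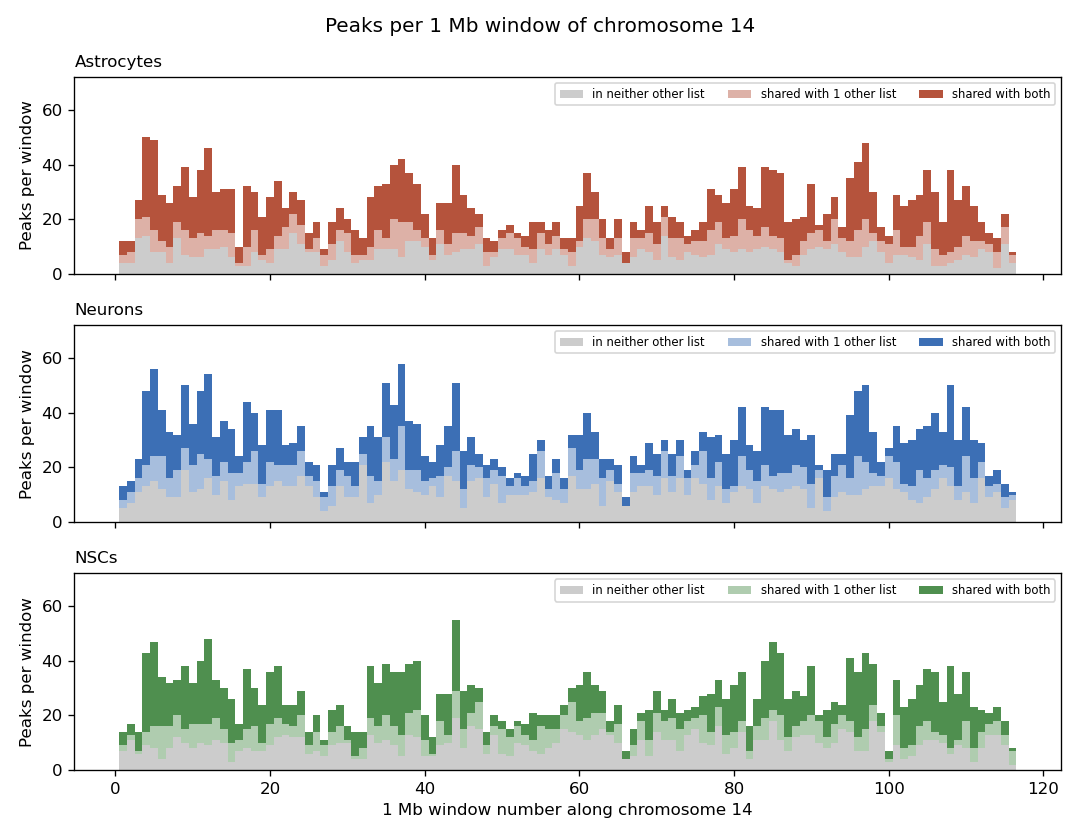
Number of peaks (vertical axis) in each 1 Mb window of chromosome 14, numbered from its start (horizontal axis), for Astrocytes, Neurons and NSCs, with grey for peaks in neither other list, pale colour for those shared with 1 list and full colour for those shared with both. Over full windows the grey part ranges from 2 to 15 in Astrocytes, 4 to 22 in Neurons and 3 to 19 in NSCs. The fully coloured part ranges from 2 to 33 in Astrocytes, 2 to 32 in Neurons and 2 to 31 in NSCs.

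The number of peaks found in all cell types changed along the chromosome far beyond counting error, while the number found in 1 cell type alone varied less relative to that error. Peaks shared with both other lists varied between windows with a variance of 4.63, 4.49 and 4.54 times their mean in Astrocytes, Neurons and NSCs. By definition these are largely the same regions in every list, so their values for the cell types are not independent. Peaks in neither other list had a variance of 1.05, 1.11 and 1.30 times theirs, where counting error alone gives 1. Their number per window still ranged from 2 to 15, 4 to 22 and 3 to 19. The 29 densest windows averaged 22.2 shared and 8.31 unshared peaks in Astrocytes, 21.9 and 13.1 in Neurons and 22.1 and 10.6 in NSCs. The 29 sparsest averaged 4.45 and 6.31 in Astrocytes, 4.38 and 10.5 in Neurons and 4.41 and 8.48 in NSCs. These windows were ordered by the same counts, so the averages are a description. Window counts of all peaks correlated across the 115 windows with a Pearson r of 0.869 between Astrocytes and Neurons, 0.865 between Astrocytes and NSCs and 0.848 between Neurons and NSCs. For peaks in neither other list r was 0.0993, 0.282 and 0.140 in the same pairs. The windows share their sequence, mappability and gene content, and neighbouring windows are not independent.

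The sparsest full window, from 65000001 to 66000000, held 8 peaks in Astrocytes, 9 in Neurons and 7 in NSCs, yet its strongest peaks reached folds of 98.9, 69.6 and 43.1. Next came the window from 26000001 to 27000000 with 9, 11 and 11 peaks, which were annotated with 1 gene, Tecrl, a reductase-like protein of heart. Genes given for a window are those its peaks were annotated with, not all genes located in it. The first 2 Mb of the chromosome, which carry the vomeronasal pheromone receptors Vom2r66, Vom2r67, Vom2r69, Vom2r72 and Vom2r73, held 12 and 12 peaks in Astrocytes, 13 and 15 in Neurons and 14 and 17 in NSCs. Crlf2, Rnf212 and Tmed11 were the other named genes with a peak there. After these came the window from 40000001 to 41000000, with the GABA-A receptor gene Gabrg1 and 13, 22 and 12 peaks. Of the 11 full stretches of 10 Mb, the least dense was 50 to 60 Mb, with 17.1, 22.6 and 21.6 peaks per Mb in Astrocytes, Neurons and NSCs. The remaining end of the chromosome, from 110 Mb, had 18.7, 22.02 and 21.1. At 50 to 60 Mb only 26.9% of the peaks were shared with both other lists, the lowest percentage of the 12 stretches, the end included. The highest was 55.1% at 100 to 110 Mb.

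The densest window, from 4000001 to 5000000, held 49 peaks in Astrocytes, 56 in Neurons and 47 in NSCs, which were annotated with 3 placeholder genes only. The window from 11000001 to 12000000, with Enoph1 of the methionine salvage pathway, held 46, 54 and 48. That from 43000001 to 44000000 held 40, 51 and 55, among them peaks of Apbb2, an adaptor that binds the amyloid precursor protein, Limch1, Nsun7, Rbm47, Rhoh, and Uchl1, an abundant neuronal deubiquitinase. The window from 3000001 to 4000000, with Brdt, a testis bromodomain protein, the replication kinase Cdc7, the co-receptor Tgfbr3, Btbd8, Ephx4, Evi5, Glmn and Rpap2, held 50, 48 and 43. A window from 96000001 to 97000000 with 1 placeholder gene held 48, 50 and 43. The peaks of these 5 windows were annotated with 1 to 16 gene symbols per window.

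Distances between neighbouring peaks show the same pattern. The median gap was 22.9 kb in Astrocytes, 19.2 kb in Neurons and 21.4 kb in NSCs, against 13.8, 11.7 and 13.1 kb on the other autosomes. The longest stretch without a peak was 422 kb in Astrocytes, 404 kb in Neurons and 421 kb in NSCs, each at a different place. Taking all 3 lists together, the longest was 250 kb, from 101851742 to 102101870.

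Peaks overlapped those of both other lists about as often as elsewhere, but those of 1 other list alone less often. Of the chromosome 14 peaks, 47.6% in Astrocytes (95% interval 45.7 to 49.4), 39.1% in Neurons (37.5 to 40.8) and 43.8% in NSCs (42.0 to 45.5) overlapped a peak of both other lists by at least 1 bp. On all other chromosomes the same share was 45.8%, 38.6% and 43.6%. These intervals are exact Clopper-Pearson intervals, and all intervals here cover counting error only. Peaks in neither other list made up 30.2% (28.6 to 31.9), 37.8% (36.2 to 39.4) and 35.0% (33.4 to 36.7) on chromosome 14, and 29.2%, 36.1% and 32.0% elsewhere. The Neuron and NSC intervals lay above the values elsewhere. The NSC share, 35.0%, was the highest of the 20 autosomes, the others spanning 21.0% to 34.8%. Astrocyte peaks shared with Neurons alone made up 13.3% (14.7% elsewhere), and with NSCs alone 8.94% (10.4%). For Neuron peaks the shares were 11.0% with Astrocytes alone (12.4%) and 12.1% with NSCs alone (12.9%). For NSC peaks they were 8.10% with Astrocytes alone (9.80%) and 13.1% with Neurons alone (14.5%). Among these, only the interval of Neuron peaks with NSCs alone, 11.0 to 13.2, contained the value elsewhere. Merged over the lists, chromosome 14 had 5729 separate regions, of which 1374 (24.0%) held peaks of all 3 cell types. Regions with a peak in 1 cell type alone numbered 879 in Astrocytes, 1333 in Neurons and 1107 in NSCs.

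Sharing followed the strength of a peak. All chromosome 14 peaks with a fold of 50 or more, 108 in Astrocytes, 126 in Neurons and 84 in NSCs, overlapped a peak of both other lists. Between a fold of 20 and 50 the share was 91.1%, 86.8% and 90.5%, and elsewhere in the genome it was 91.8%, 87.4% and 90.1%. Between 10 and 20 it was 32.8% in Astrocytes (30.5 to 35.2), 26.1% in Neurons (24.1 to 28.1) and 31.7% in NSCs (29.6 to 33.9), below the 38.8%, 30.5% and 37.6% of the other chromosomes in each list. Chromosome 14 also held relatively more peaks of high fold, and its shares over all peaks were those given above. Less of chromosome 14 was covered by peaks, as given above, and the part of that coverage in the overlap was not tested. Shared peaks were wider, with a median of 521.5, 542 and 550 bp in Astrocytes, Neurons and NSCs, than peaks in neither other list, with 342, 359 and 363 bp.

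Gene bodies held a smaller share of peaks on chromosome 14 than among all peaks of the other chromosomes. The share was 30.7% in Astrocytes (29.1 to 32.4), 30.6% in Neurons (29.04 to 32.1) and 30.3% in NSCs (28.7 to 31.9), against 35.1%, 34.8% and 34.3% on the other chromosomes. The other autosomes, each on its own, spanned 30.6% to 44.0%, 30.7% to 44.0% and 29.9% to 43.5%. Chromosome 14 was thus the lowest autosome in Neurons only, and near the low end in Astrocytes and NSCs. Nearly all gene body peaks of chromosome 14 lay in introns, and 65.7%, 66.0% and 66.1% of all chromosome 14 peaks lay in no annotated class. Promoters held 76 peaks in Astrocytes (2.61%), 88 in Neurons (2.50%) and 85 in NSCs (2.69%), against 3.03%, 3.22% and 2.97% elsewhere. The Neuron interval, 2.01 to 3.07, excluded the other chromosomes' value, and those of Astrocytes (2.06 to 3.26) and NSCs (2.15 to 3.31) did not. CpG islands held 3, 7 and 6 peaks. The share of bases in each class on the files' build was not established, so these shares say where the peaks lay and not whether a class was enriched.

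Peaks were annotated to 446 gene symbols in Astrocytes, 508 in Neurons and 468 in NSCs, 627 in all, of which 344 had a peak in every list. Of the 627 symbols, 439 (70.0%) were matched to the RefSeq gene table of GRCr8, as were 368 of the 377 that are gene names. Of 691 protein-coding genes that this table places on chromosome 14, 267 (38.6%) held a peak in Astrocytes, 305 (44.1%) in Neurons and 288 (41.7%) in NSCs, where the background over all 23154 protein-coding genes was 39.5%, 42.3% and 39.3%. The exact 95% intervals, 35.0 to 42.4, 40.4 to 47.9 and 38.0 to 45.5, all contain the background. The genes of chromosome 14 are longer, with a median of 24.2 kb against 15.3 kb elsewhere. Per 100 kb of gene, chromosome 14 held 1.86, 2.25 and 2.01 peaks in Astrocytes, Neurons and NSCs, against 2.98, 3.49 and 3.04 on the other chromosomes, ratios of 0.623, 0.645 and 0.663. Genes of 100 kb or more held a peak in 87.3%, 88.2% and 87.3% of 102 cases, against 86.9%, 87.5% and 87.0% elsewhere. Genes of 10 to 100 kb held one in 42.1% (37.1 to 47.2), 50.1% (45.03 to 55.2) and 46.8% (41.7 to 51.9) of 387, against 51.9%, 55.9% and 51.5% elsewhere. In this class the values of Astrocytes and Neurons were thus below those of the other chromosomes beyond counting error. Genes under 10 kb held one in 7.43%, 10.4% and 8.91% of 202, against 11.4%, 13.0% and 11.0%. The table's assembly need not be that of the files, so lengths are approximate.

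Most of the strongest peaks of chromosome 14 lay in no annotated class, as did most of all its peaks. Of the 15 with the largest fold in each list, 9 in Astrocytes, 10 in Neurons and 10 in NSCs lay in none, and the others lay in introns. Among all chromosome 14 peaks the share in no class was 65.7%, 66.0% and 66.1%, so these counts do not set the strongest peaks apart. The largest fold in Neurons, 170, was of an unannotated peak at 101545530 to 101545868, and the Astrocyte peak overlapping it had 164. In Fryl, a large protein related to the Drosophila regulator furry, a peak at 37648035 to 37648628 reached a fold of 161 in Astrocytes, and the peaks overlapping it reached 137 in Neurons (37648112 to 37648445) and 159 in NSCs (37648028 to 37648438). The Neuron and NSC peaks had the same score, 3100, which several other chromosome 14 peaks also had. The shared value therefore does not show that these peaks were equally strong. The highest fold in Astrocytes, 186, belonged to Abca13, a very large lipid transporter of the ABC family. The largest fold of Fam184b was 148 in Astrocytes and 157 in NSCs, and that of Ccdc149 was 152 in Neurons. Tmprss11a, an epithelial serine protease, reached 122 in Astrocytes and 136 in Neurons, and the kinase Vrk2 reached 121 and 101 in these lists. The other named genes among the 10 largest folds of a list were Pkd1l1, Rhoh, a small GTPase of blood cells, and Sh3tc1 in Astrocytes, Ccdc158, the zinc transporter Slc30a9, Scfd2 and Sh3tc1 in Neurons, and Sh3tc1, Pkd1l1, the centromere protein Cenpc, Scfd2, Sec31a of the COPII coat and Anapc4 in NSCs. Their folds spanned 105 to 108 in Astrocytes, 96.2 to 117 in Neurons and 68.95 to 117 in NSCs.

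Long genes held the most peaks. Adgrl3, an adhesion receptor of synapses, held 16 in Astrocytes, 18 in Neurons and 17 in NSCs over 767 kb. Sorcs2, a neuronal sorting receptor that also binds proneurotrophins, held 16, 19 and 18 over 368 kb. Ehbp1, an adaptor of endocytosis, held 15, 18 and 14, and Abca13 held 15, 16 and 18. The bicarbonate transporter Slc4a4 held 12, 18 and 12 peaks, and Mapk10, the JNK isoform of neurons, held 11, 13 and 9. Fras1 of the extracellular matrix held 13, 14 and 12, and Corin, a protease that activates natriuretic peptides, 12, 11 and 12. Scfd2 held 9, 18 and 10, and Limch1 11, 11 and 12. The order of cell types was not the same from gene to gene, and no spread between libraries is known for such counts.

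Gene families of chromosome 14, 10 in number, were followed gene by gene. Together they have 101 genes on the chromosome, of which 50 had a peak in Astrocytes, 55 in Neurons and 57 in NSCs, where the background over all protein-coding genes was 39.5%, 42.3% and 39.3%. The families have a median length of 24.6 kb, near the 24.2 kb of all protein-coding genes of chromosome 14. Of those, 38.6%, 44.1% and 41.7% held a peak in Astrocytes, Neurons and NSCs. The families were chosen with earlier results of these data known, and longer genes held a peak more often. The family counts below are therefore a description. A gene without a peak here is one whose symbol no peak was annotated with.

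The GABA-A receptor cluster, which encodes subunits of the brain's main inhibitory receptor, had a peak in 4 of 4 genes in every list. Its median gene length was 107 kb, but Gabrg1 and Gabra4 are 71.4 and 76.9 kb long. Of chromosome 14 genes of 100 kb or more, 87.3%, 88.2% and 87.3% had a peak in Astrocytes, Neurons and NSCs. Of those of 10 to 100 kb, 42.1%, 50.1% and 46.8% had a peak. Gabrb1 held 11 peaks in Astrocytes, 16 in Neurons and 16 in NSCs over 484 kb, with largest folds of 43.3, 50.2 and 28.8. Gabra2 held 2, 6 and 5. Gabra4 held 2, 1 and 2, and Gabrg1 1, 1 and 2. Of the 5 Gabra2 peaks in NSCs, the strongest lay just downstream of the gene at 39801155 to 39801730, with a fold of 22.6, and overlapped no peak of the other lists.

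Receptor and non-receptor tyrosine kinases, counted together with the FGF receptor-like gene Fgfrl1, had a peak in 7 of 9 genes in every list. Their median length was 56.2 kb, and the background over all genes was 39.5%, 42.3% and 39.3%. Kit, the stem cell factor receptor, had a peak in all lists at about the same place, with a fold of 28.0 in Astrocytes (35102214 to 35102932), 39.8 in Neurons (35102178 to 35103062) and 32.6 in NSCs (35102468 to 35103003). Kdr, the main VEGF receptor, had one with 28.0 (34738025 to 34738727), 27.8 (34738122 to 34738810) and 33.9 (34738025 to 34738595). Pdgfra, the receptor that marks oligodendrocyte precursors, had a strong intronic peak, which a placeholder gene also overlaps or neighbours, with 27.0 in Astrocytes (35553961 to 35555049), 27.8 in Neurons (35554016 to 35555121) and 55.2 in NSCs (35554016 to 35555075). Pdgfra also had an intronic CpG island peak in each list, with folds of 14.4, 15.7 and 22.6. The neighbouring kinase genes Tec and Txk held 5 and 3 peaks in Astrocytes, 3 and 1 in Neurons and 4 and 2 in NSCs. Epha5, an ephrin receptor of axon guidance, held 7, 9 and 6 peaks and Egfr 3, 3 and 4. Fgfr3 and Fgfrl1, 15.4 and 12.1 kb long, had none in any list.

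Guidance and adhesion genes had a peak in 7 of 8 genes in every list, with a median length of 286 kb. Of chromosome 14 genes of 100 kb or more, 87.3%, 88.2% and 87.3% had a peak. Lgi2 and Crmp1, however, are 27.5 and 46.2 kb long, and 42.1%, 50.1% and 46.8% of genes of 10 to 100 kb had a peak. Slit2, a secreted repellent of growing axons, held 5, 6 and 6 peaks in Astrocytes, Neurons and NSCs. Kcnip4, a partner of potassium channels, held 4, 8 and 3 over 1151 kb. Adgra3 held 4, 7 and 4, the actin nucleator Cobl 7, 4 and 5, the secreted protein Lgi2 2, 3 and 3 and the collapsin response mediator Crmp1 1, 1 and 3. The protocadherin gene Pcdh7, 430 kb long in the reference, had no peak annotated to it in any list.

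Of 20 neuronal signalling and disease genes, 13 held a peak in Astrocytes, 15 in Neurons and 16 in NSCs. Their median length was 89.7 kb, and the background over all protein-coding genes was 39.5%, 42.3% and 39.3%. The adenylyl cyclase Adcy1 held 4, 8 and 3 peaks and the lipid flippase Atp8a1 2, 3 and 3. Apbb2 held 0, 3 and 1 over 383 kb. Ppargc1a, a coactivator of mitochondrial genes, held 3, 3 and 2, with largest folds of 33.1, 42.3 and 56.4. Ddc, which makes dopamine and serotonin, held 3, 3 and 2, Grb10, an imprinted adaptor of insulin signalling, 3, 1 and 1, and Htt, the gene of Huntington disease, 2, 2 and 1. The short receptor genes Adra2c, Drd5 and Chrna9, and Wfs1, had no peak.

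Transcription factors had a peak in 6 of 18 genes in Astrocytes, 8 in Neurons and 8 in NSCs. The background over all protein-coding genes was 39.5%, 42.3% and 39.3%, and the median length of this family was 31.0 kb. Rbpj, the nuclear effector of Notch signalling, held 5, 7 and 5 peaks, Meis1 7, 7 and 5 and Ldb2 5, 6 and 7. The compact homeobox genes Msx1, Otx1, Hmx1 and Gsx2 had none, and neither had Xbp1 or the circadian gene Clock. Nkx3-2, Lcorl and Klf3 had a peak in NSCs alone, and Rel and Prdm8 in Neurons alone. Each of these had a fold of 9.66 to 12.5, and the median fold of peaks in neither other list was 10.9 in Neurons and 11.3 in NSCs.

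Families of liver, milk, bone and immune genes have shorter genes, most of which held no peak. Over all protein-coding genes 39.5%, 42.3% and 39.3% held one in Astrocytes, Neurons and NSCs. Of the albumin family, Afm held 5 in every list, with largest folds of 82.7, 67.6 and 55.6 in Astrocytes, Neurons and NSCs at one intronic place, and Alb held 2 in every list. The vitamin D carrier Gc held 1, 0 and 1, and alpha-fetoprotein, Afp, held none. CXC chemokines had a peak in 2 of 10 genes, Cxcl3 and Cxcl6, in every list. Caseins with enamel and salivary proteins had one in 3, 5 and 4 of 11 genes. Of these, the salivary protein gene Smr3b held 5, 4 and 10 peaks. Its length in the reference is 4.67 kb, but its intronic NSC peaks lay between 21555072 and 21677604. The files thus use a much longer gene model, and the reference length does not apply to these counts. A peak was found for glucuronosyl- and sulfotransferases in 3, 2 and 3 of 12 genes. The bone matrix cluster had a peak in 2, 3 and 3 of 5 genes, with Dmp1 at 4 in each list. Where a family holds near-identical copies, reads can align to more than 1 of them, which makes peaks there uncertain. Which of these genes this concerns was not tested.

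**Figure D4:**
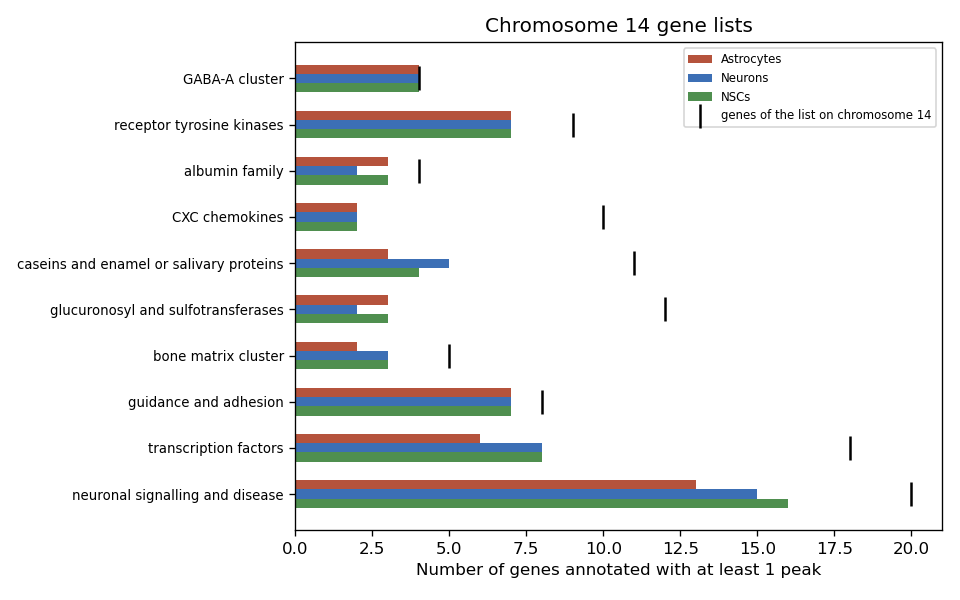
Number of genes annotated with at least 1 peak (horizontal axis) in each gene family of chromosome 14 (vertical axis), with bars for Astrocytes, Neurons and NSCs and a black mark at the number of family members on the chromosome. The GABA-A cluster reaches its mark at 4 of 4 in each list, while CXC chemokines stop at 2 of 10. Their median gene lengths are 107 and 1.91 kb.

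A single Neuron peak lay on the ribosomal RNA genes Rn45s, Rn18s, Rn5-8s and Rn28s at 46643068 to 46645827, with a fold of 4.49. These genes are repeated many times in the genome, so its reads cannot be assigned to this copy.

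The authors' deposited tables also compare the immunoprecipitated libraries with each other. Each library enters more than 1 of these comparisons, so their lists are not independent. On chromosome 14, regions higher in Astrocytes than in Neurons numbered 399 in the authors' deposited table and the opposite ones 934, a ratio of 0.427, where the other chromosomes gave 0.418. For Astrocytes against NSCs it listed 531 and 768, a ratio of 0.691 against 0.675 elsewhere. For Neurons against NSCs it listed 809 and 691, a ratio of 1.17 on chromosome 14 and elsewhere. As a share of both directions, the regions higher in the cell type named first made up 29.9% (27.5 to 32.5), 40.9% (38.2 to 43.6) and 53.9% (51.4 to 56.5) on chromosome 14, and 29.5%, 40.3% and 53.8% elsewhere.

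Taking all listed regions, peaks of chromosome 14 overlapped those listed as different at shares near or above those of the whole lists. Of the Astrocyte peaks, 12.4% (11.2 to 13.7) overlapped a region higher in Astrocytes than in Neurons, where the background over the whole list was 11.2%, and 16.4% (15.1 to 17.8) overlapped one higher than in NSCs, with a background of 15%. Of the Neuron peaks, 22.9% (21.5 to 24.3) overlapped a region higher than in Astrocytes, with a background of 22.1%, and 20.8% (19.5 to 22.2) one higher than in NSCs, with a background of 19.7%. Of the NSC peaks, 22.0% (20.6 to 23.5) overlapped a region higher than in Astrocytes, with a background of 20.2%, and 19.6% (18.2 to 21.0) one higher than in Neurons, with a background of 16.9%. Both NSC values were the highest of the 20 autosomes, whose others spanned 16.2% to 21.7% and 11.8% to 18.1%. With comparison regions of a score of at least 100 alone, the share over Neurons was 1.83% on chromosome 14 and 1.91% elsewhere, and that over Astrocytes 2.78% and 2.53%. Neuron peaks then had 2.27% over Astrocytes and 2.18% over NSCs, where the values elsewhere were 2.79% and 2.62%. No intervals were made for the shares at this score, so whether they differ beyond counting error was not tested. The share of NSC peaks found in neither other list was also the highest of the autosomes, and its part in the NSC values was not tested.

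Sparcl1, also known as hevin, a matrix protein that astrocytes secrete and that promotes synapses, gave the largest fold of a named gene on chromosome 14 for NSCs over each other cell type. In the authors' deposited table its intronic region had a fold of 29.2 over Astrocytes (7005365 to 7006036) and 21.8 over Neurons (7005365 to 7006066). Against input, Sparcl1 had 0 peaks in Astrocytes, 0 in Neurons and 1 in NSCs, with a fold of 28.8 and a score of 321.9. It was 1 of 19 NSC peaks with a fold between 20 and 50 that overlapped no peak of the other lists.

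Poln, a DNA polymerase, led the lists of Astrocytes and of Neurons over NSCs. Its region in the authors' deposited table had a fold of 24.8 for Astrocytes (81998924 to 81999494) and 23.0 for Neurons (81998875 to 81999398), each over NSCs. Against input, the same place had a fold of 32.4 in Astrocytes and 28.9 in Neurons, and no peak in NSCs. The 2 comparisons share the NSC library.

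In the authors' deposited table, Mtmr3, a phosphoinositide phosphatase, had a fold of 22.1 in Astrocytes over Neurons (84783206 to 84783560), and the same region 17.2 over NSCs, followed in the first list by the centrosome gene Cep68 with 20.8 and the protease Tmprss11e with 18.2. Neurons over Astrocytes were led, in the authors' deposited table, by Letm1, a mitochondrial cation transporter, with 20.9 (82264805 to 82265309), Adgrl3 with 20.8 and Cenpc with 18.2. The authors' deposited table gave Ccdc158 a fold of 19.9 and Ccdc149 one of 18.6 in Astrocytes over NSCs. For NSCs over Astrocytes, the authors' deposited table had Gabra2 at 23.9 (39801155 to 39801722) and Pgm2, an enzyme of sugar phosphate metabolism, at 19.0. Adgra3 at 19.9 and Kctd8, an auxiliary protein of GABA-B receptors, at 18.5 followed Poln in Neurons over NSCs, and Bend4 at 20.8 and ste2 at 18.5 followed Sparcl1 in NSCs over Neurons, both from the authors' deposited table.

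Among the 101 family genes, the authors' deposited tables placed a region higher in Astrocytes than in Neurons in 15 genes and higher in Neurons in 33, where 15.3% and 25.6% of all protein-coding genes had one. Regions higher in Astrocytes than in NSCs lay in 24 genes and higher in NSCs in 32, with backgrounds of 18.6% and 22.3%. Regions higher in Neurons than in NSCs lay in 26 and higher in NSCs in 22, with backgrounds of 23.2% and 20.5%. The families were chosen with earlier results known and gene length was not matched, so these numbers are no statement about the families. Adgrl3 had regions in opposite lists, with 5 higher in Astrocytes than in Neurons and 4 higher in Neurons.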

How the data were processed

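Genomic DNA was sonicated, adapter-ligated, denatured, immunoprecipitated and sequenced per the labels' protocols, and BWA, with no version stated, is named in the submitters' processing notes. The deposited mapping summary gives read counts per library and mapping rates in percent; 1 row of it belongs to no sample and was not used. The authors' peak lists give a score, with a minimum of 50 in every list, and a fold ratio to input or, in 6 comparison lists, to another library. No source used here gives the caller, its version, its filters or the genome build.

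Peaks were read as deposited, and 6 lines without a position were skipped. Chromosome length was the largest region end in any list. A peak belonged to the 1 Mb window of its midpoint, and peaks were shared at an overlap of 1 bp, checked on simulated data. The last partial window was left out of window summaries. Exact Clopper-Pearson intervals (95%) were made with SciPy 1.17.1, in Python 3.11.15 with pandas 2.3.3, numpy 2.4.6 and matplotlib 3.10.9. Only counting error is covered, because neither reads nor adjacent peaks are independent molecules.

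The chromosome, the gene families and the tests were chosen with earlier results of these data known. Genes were named by rule: per list, the 10 with the largest fold and the 10 with the most peaks, genes of the 5 densest and 5 sparsest windows, promoters with a peak in all lists, the 3 largest folds per comparison list, and the family members. Placeholder names, windows beyond those described and some members are covered by counts, and 1 family member is not reported here by name. Of the 104 family symbols, 3 were left out: Lphn3 and Ugt2b17, which the gene table does not place on chromosome 14 and the files do not use there, and Nsd2, which the files call Whsc1. Alternatives were a score of at least 100, a fold of at least 20, other lengths, a 50% overlap, equal list sizes, other windows and gene bodies alone.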

Additional observations from a re-analysis of the deposited data

How the results depend on the processing

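No paired analysis was possible because each cell type had 1 library, and none could be left out. Of 57 alternative values 11 stayed within the interval, or within 1.5 times the count, of the value reported, and 46 moved; chromosome 14 stayed below the median autosome in every ratio. Values are in the order Astrocytes, Neurons and NSCs. A score of at least 100 gave 11.4, 13.4 and 11.9 peaks per Mb and a fold of at least 20 gave 6.89, 7.70 and 6.38, by construction. The ratio to the median autosome was 0.598 in Astrocytes with the score, 0.749, 0.708 and 0.734 with the fold, and 0.538, 0.539 and 0.551 by percent covered. Sharing with both other lists was 43.4%, 35.9% and 39.4% at an overlap of 50%, 61.5%, 52.3% and 59.0% with the score, 59.5%, 53.2% and 64.3% with the fold, and 57.6%, 57.5% and 57.8% for the 1454 highest-scoring peaks of each list. Gene bodies held 32.4% of Neuron peaks with the score, and 32.5%, 33.3% and 33.2% with the fold. Windows with fewer than 10 peaks numbered 58, 43 and 52 with the score, by construction, 0 in Neurons and in NSCs when shifted by 0.5 Mb, and 0, 0 and 0 as 2 Mb windows with fewer than 20 peaks. Genes with a peak fell to 277, 318 and 282 with the score. With a score of at least 100 in the comparison list, 1.03% and 1.62% of Astrocyte peaks overlapped a region higher than in Neurons and than in NSCs. The same share was 2.27% and 2.18% of Neuron peaks, over Astrocytes and over NSCs, and 2.78% and 1.83% of NSC peaks, over Astrocytes and over Neurons. Elsewhere these shares were 0.845% and 1.51%, 2.79% and 2.62%, and 2.53% and 1.91%. Those of Neuron peaks and of NSC peaks over Neurons thus turned to the lower side. No intervals were made for them, so a difference beyond counting error was not tested. The gene body share stayed below that of the other chromosomes with the score and with the fold, where they had 35.4% to 37.9%. Other than where construction is named, the cause was not tested. Whether a peak found in 1 list alone would recur in a second library of that cell type is unknown.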
